A study of Mus musculus with 6 samples.

Results

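Lysozymes, antimicrobial lectins and related secreted antibacterial proteins were compared between epithelium and mesenchyme of the fetal mouse small intestine. The set held 8 genes of the 18161 measured, chosen by name for their known roles: Lyz1, Lyz2, Reg3b, Reg3g, Itln1, Ang4, Pla2g2a and Defb1. The choice was made with earlier results of these data known. Every probe set that the platform annotation assigned to 1 of these symbols was used, which gave 13 of 45037 probe sets, and none of the 13 carried a second gene symbol. The tissue came from embryos of C57BL/6 females at E18.5, the last days of gestation. The epithelium group (pools A, B and C) was the epithelial layer that came off the opened small intestine, from duodenum to caecum, after 9 hours in a cold non-enzymatic release solution. The mesenchyme group (pools A, B and C) was the gut wall left behind, and so held muscle, vessels, nerves and blood-borne cells as well as fibroblasts. Each pool joined 3 embryos and was measured on 1 Affymetrix mouse genome array. The pools had been selected by RT-PCR for Vil1, Prkg2, Vim, Madcam1 and Actg2, out of 6 made per tissue.

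In the adult small intestine, Paneth cells at the crypt base release lysozyme, alpha-defensins, a secreted phospholipase and an angiogenin into the lumen, while enterocytes and goblet cells add C-type lectins of the Reg3 group. In the mouse, crypts and Paneth cells form only after birth, and the Reg3 lectins are known to increase when bacteria settle in the gut. Lysozyme has 2 genes in the mouse, Lyz1, the form known from Paneth cells, and Lyz2, the form of macrophages and other myeloid cells. Both encode enzymes that cleave bacterial cell wall peptidoglycan, and the genes lie side by side as a tandem duplication. In RefSeq genes of GRCm38.p6, Lyz2 spans chr10:117277541-117282272 and Lyz1 spans chr10:117287795-117292868, both on the minus strand.

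The likeness of these copies matters for an array, because a probe that matches both transcripts cannot tell them apart. Probe sequences were not available here. The windows below describe the genes around their start sites and do not show which probes match both transcripts. RefSeq (GRCm38.p6) start-site windows were available for 6 of the 8 genes. The 250 bases upstream of the start site are shown for the lysozymes, at chr10:117292869-117293118 for Lyz1 and chr10:117282273-117282522 for Lyz2, and for the neighbouring lectin genes, at chr6:78370635-78370884 (plus strand) for Reg3b and chr6:78468875-78469124 (minus strand) for Reg3g. Each runs 5′ to 3′ on the gene's strand, and capitals mark the longest run that the pair shares.
Lyz1: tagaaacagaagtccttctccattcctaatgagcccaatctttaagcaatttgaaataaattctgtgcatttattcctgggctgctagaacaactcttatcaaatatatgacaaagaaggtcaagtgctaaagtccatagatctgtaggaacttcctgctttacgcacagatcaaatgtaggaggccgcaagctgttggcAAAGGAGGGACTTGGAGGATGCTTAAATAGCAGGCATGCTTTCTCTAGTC
Lyz2: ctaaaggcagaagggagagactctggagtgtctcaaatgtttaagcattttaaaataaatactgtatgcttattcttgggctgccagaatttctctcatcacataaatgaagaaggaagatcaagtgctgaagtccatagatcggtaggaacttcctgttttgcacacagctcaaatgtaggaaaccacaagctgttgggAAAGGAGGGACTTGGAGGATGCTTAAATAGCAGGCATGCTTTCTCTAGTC
Reg3b: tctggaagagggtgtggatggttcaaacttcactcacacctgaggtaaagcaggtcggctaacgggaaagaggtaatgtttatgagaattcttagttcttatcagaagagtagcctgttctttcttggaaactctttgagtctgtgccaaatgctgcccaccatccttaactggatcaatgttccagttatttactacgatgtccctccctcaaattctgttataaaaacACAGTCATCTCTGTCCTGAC
Reg3g: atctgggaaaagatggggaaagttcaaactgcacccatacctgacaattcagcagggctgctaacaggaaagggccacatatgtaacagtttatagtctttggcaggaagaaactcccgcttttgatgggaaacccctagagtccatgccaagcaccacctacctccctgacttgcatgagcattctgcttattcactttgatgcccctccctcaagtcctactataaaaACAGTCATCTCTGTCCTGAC
The lysozyme windows were identical at 200 of 252 aligned positions (79.4%), and the shared run covered the last 50 bases before the start site. Over the first 50 bases downstream of the start site, the 2 lysozyme genes matched at 49 positions. The Reg3 windows were identical at 173 of 253 aligned positions (68.4%), with a shared run of 20 bases. The letters TATAAA occurred in both Reg3 windows and in neither lysozyme window, and were present on either strand in 12.4% of 32851 windows of this length. The palindrome TTCNNNGAA, the core bound by STAT factors, occurred in the windows of Reg3b and Ang4 and in 7.02% of all windows. GAGGAA, the core of sites for the myeloid factor PU.1, occurred in the windows of Ang4 and Itln1 and in 23.3% of all windows. These matches describe letters and were not tested as binding sites.

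The values were log2 expression values between 4.6 and 15.2, rounded to 0.1, with array medians of 8.1 to 8.6 in the epithelium and 8.5 to 8.7 in the mesenchyme. The bacterial controls, whose transcripts mice lack, had array means of 5.92 to 6.07 in the epithelium and 5.87 to 6.25 in the mesenchyme, and no detection calls were used here. Where 1 tissue's level lay near these controls, the difference is a lower limit. All 9 measured enterocyte markers were higher in the epithelium (median difference 3.50) and all 8 stromal markers were lower there (median difference -6.77). Vil1, Vim, Madcam1 and Actg2 among these had served to select the pools, so their separation is no independent check. The enterocyte markers that differed most were Vil1 (4.70), Lct (4.63), Slc5a1 (4.47) and Alpi (4.30), and the stromal ones were Actg2 (-7.23), Col1a1 (-7.20), Col3a1 (-7.17) and Pdgfra (-6.97). With 1 array left out, the difference given for Pdgfra as a gene ran from -7.12 to -2.93. In pools A, B and C, its probe set used here stood at 6.0, 6.6 and 6.3 (epithelium) and 13.5, 13.2 and 13.1 (mesenchyme). Leaving out any 1 of these arrays cannot bring that probe set to -2.93. The value of -2.93 therefore does not show that this probe set depended on 1 array. Which Pdgfra probe set gave it was not tested. Levels are given as mean ± SD (n = 3 arrays per tissue) and differences as epithelium minus mesenchyme in log2 units ± standard error (limma). A probe set or gene was called at an adjusted p under 0.05 with a difference of at least 1, a 2-fold change. Among all genes, 8.2% were called higher in the epithelium and 15.9% lower, the shares to set beside each list count below. Of all probe sets called, 27.9% were higher in the epithelium, a share that was 39.3% to 46.3% under 4 other scalings and 17.3% with spike-in centring of the arrays. Over all probe sets the median difference, -0.17, shifted by 0.19 to 0.32 under those 4 scalings and by -0.26 with spike-in centring. Spike-in means were 10.56, 10.61 and 10.77 in epithelium A, B and C, against 10.59, 9.8 and 10.76 in mesenchyme A, B and C. Spike-in centring therefore rested mostly on mesenchyme B, the 1 array with a low spike-in mean. The number of arrays limits the precision, and the p-values measure only the spread between these pools. That spread was drawn largely from all probe sets together, so a standard error can differ from what a probe set's own SDs give. In bulk tissue fewer cells of a type and less RNA per cell cannot be told apart.

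Among the 13 probe sets, those of Lyz2 and a pair for Lyz1 were lower in the epithelium, and 1 each for Reg3b and Ang4 was higher there. Reg3g, Itln1, Pla2g2a and Defb1 had no called probe set. The 3 lower probe sets compare with 15.5% of all probe sets called lower, and the 2 higher ones with 5.98% called higher. In 7 of the 13 the arrays of the tissues did not overlap, against 41.7% of all probe sets. The epithelium lay above in 3 of these (12.4% of all probe sets) and below in 4 (29.3% of all probe sets). The median difference over the 13 was 0.37. Of the 13, 8 reached their array's median on at least 3 arrays, and 3 lay below it on all 6 arrays (Lyz1 1450822_at, Itln1 1418165_at and Defb1 1419491_at).

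**Figure D1:**
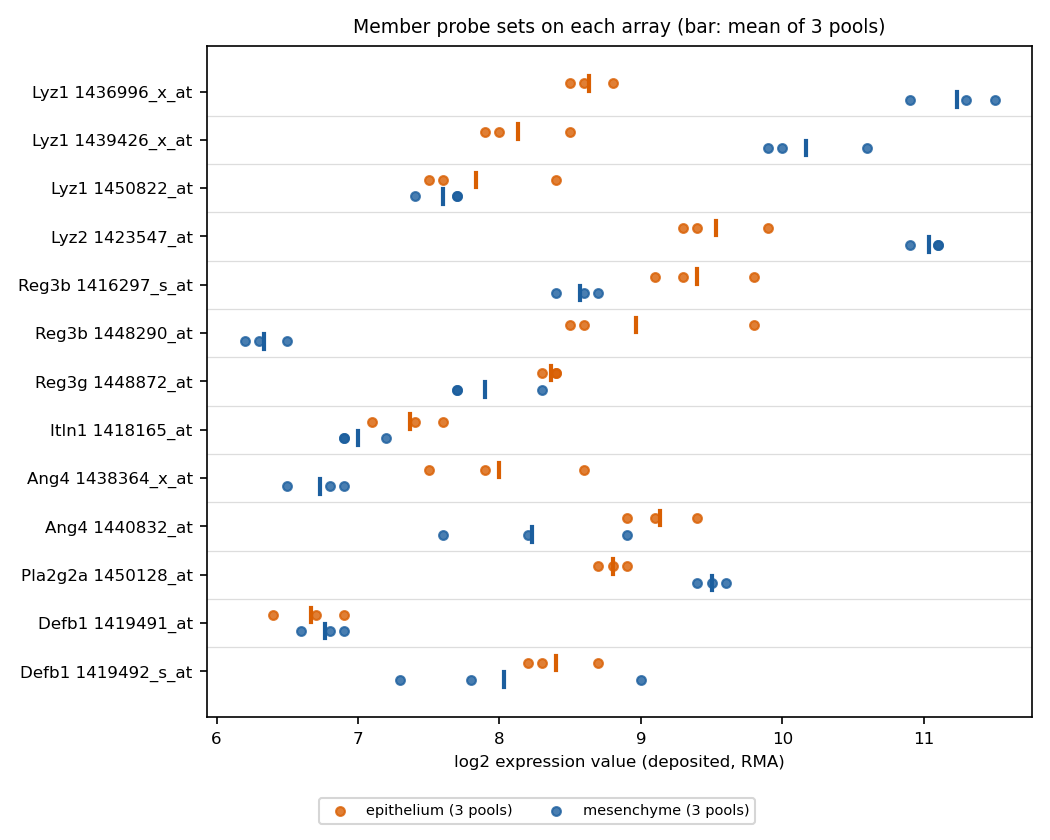
Deposited log2 expression values of the 13 member probe sets on each array, with epithelium (orange, 3 pools) above mesenchyme (blue, 3 pools) in each row and a bar at the mean. The tissues separate at Lyz2, at 2 of the 3 Lyz1 probe sets, at both Reg3b probe sets, at Ang4 1438364_x_at and at Pla2g2a.

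Lyz2 was lower in the epithelium, though it gave signal in both tissues. Its probe set, 1423547_at, stood at 9.3, 9.4 and 9.9 in epithelium A, B and C, against 11.1, 11.1 and 10.9 in mesenchyme A, B and C. Every mesenchymal array was above every epithelial array, and all 6 values were above the array medians. The level was 9.53 ± 0.32 in the epithelium and 11.03 ± 0.12 in the mesenchyme, a difference of -1.50 ± 0.23 or 2.83-fold (adjusted p = 1.57e-06, limma). At the stricter minimum difference of 2 this call ended.

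The 3 probe sets of Lyz1 did not give the same picture. The brightest, 1436996_x_at, stood at 8.6, 8.8 and 8.5 in epithelium A, B and C, against 11.5, 11.3 and 10.9 in mesenchyme A, B and C. Probe set 1439426_x_at stood at 7.9, 8.5 and 8.0 in the epithelium, against 10.6, 9.9 and 10.0 in the mesenchyme. In both, every epithelial array lay below every mesenchymal array, with differences of -2.60 ± 0.23 (6.06-fold, adjusted p = 7.28e-12, limma) and -2.03 ± 0.24 (4.09-fold, adjusted p = 7.79e-09, limma). The suffix _x_at is the manufacturer's mark for probe sets in which some probes may also match other transcripts. The remaining one, Lyz1 1450822_at, has no such mark and read 7.5, 8.4 and 7.6 in epithelium A, B and C, against 7.4, 7.7 and 7.7 in mesenchyme A, B and C. Its tissues overlapped, its values lay below every array's median, and its difference was 0.23 ± 0.24 (95% interval -0.26 to 0.73, adjusted p = 0.501, limma). For Lyz1 1450822_at the difference was 0.44 to 0.57 under 4 other scalings, with an adjusted p under 0.05 in 3 of them, and turned to -0.03 with spike-in centring and to -0.05 without epithelium B, its highest array. The gap between the tissues differed from that of 1450822_at by -2.83 for 1436996_x_at and by -2.27 for 1439426_x_at (exact permutation tests over arrays, two-sided, p = 0.1 each, the smallest p that 3 against 3 arrays allow, and adjusted p = 0.15 over 6 pairs of probe sets). How far the _x_at sets also read Lyz2 was not tested.

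**Figure D2:**
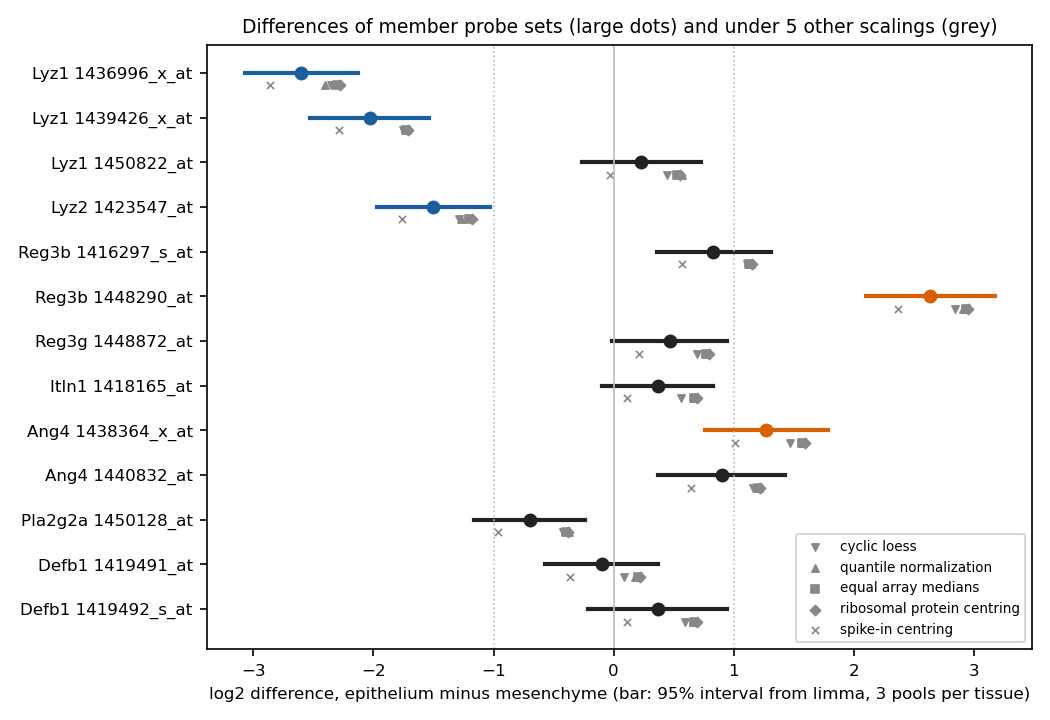
Log2 difference, epithelium minus mesenchyme, of each member probe set (large dot, with its 95% interval from limma), in blue for probe sets called lower in the epithelium, orange for those called higher and black for those not called. Grey symbols give the difference under 5 other scalings, and dotted lines mark a 2-fold difference. The _x_at probe sets of Lyz1 lie at -2.60 and -2.03 and the other at 0.23, and the Reg3b probe sets lie at 2.63 and 0.83.

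Macrophage markers were lower in the epithelium too. Of 17 measured markers, 11 were called lower there (15.9% of all genes were), none was called higher, and the median difference was -2.00. The complement genes C1qb, C1qc and C1qa, made by tissue macrophages, differed by -4.80 ± 0.23, -4.13 ± 0.23 and -3.53 ± 0.23, and Fcer1g, a signalling chain of Fc receptors, by -3.27 ± 0.23. C1qb stood at 6.9, 7.6 and 7.5 in epithelium A, B and C, against 12.2, 12.1 and 12.1 in mesenchyme A, B and C. The summed level of the 17 markers on the linear scale was 15350 to 20312 in the epithelium and 35416 to 40259 in the mesenchyme. Csf1r, the receptor for a macrophage growth factor, carried much of the epithelial sum and was not called (13.57 ± 0.21 in the epithelium and 13.17 ± 0.06 in the mesenchyme). Without it, in a list trimmed after its values were seen, the sums were 4540 to 6049 in the epithelium and 26636 to 30849 in the mesenchyme. The difference of Lyz2, -1.50, lay among the smaller ones of the called markers, next to that of Cd68, a lysosomal protein of macrophages (-1.43 ± 0.23). The part of macrophages in the lysozyme signal was not tested.

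Markers of neutrophils, which also store lysozyme, gave less contrast. Of 11 measured markers, S100a8, a calcium-binding antimicrobial protein, was called lower in the epithelium (6.27 ± 0.29 in the epithelium and 8.30 ± 0.44 in the mesenchyme, a difference of -2.03 ± 0.24), and 10 were not called. Of these 10, Lcn2 (-0.80) and S100a9 (-0.67) were lower in the epithelium with an adjusted p under 0.05 (limma) but under 2-fold. S100a8 was dim, with epithelial values of 6.1, 6.1 and 6.6 close to the bacterial controls and 1 array at or above its median. With dim probe sets left out, 0 genes of this list were called lower. The median difference of this list was -0.03, and its summed level was 4078 to 4748 in the epithelium and 4275 to 4935 in the mesenchyme. Of the relatives of lysozyme, which include the milk protein gene Lalba and sperm or testis forms, 5 of 6 listed genes were measured and none was called by limma or had an unadjusted p under 0.05, with differences of -0.23 to 0.30.

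**Figure D3:**
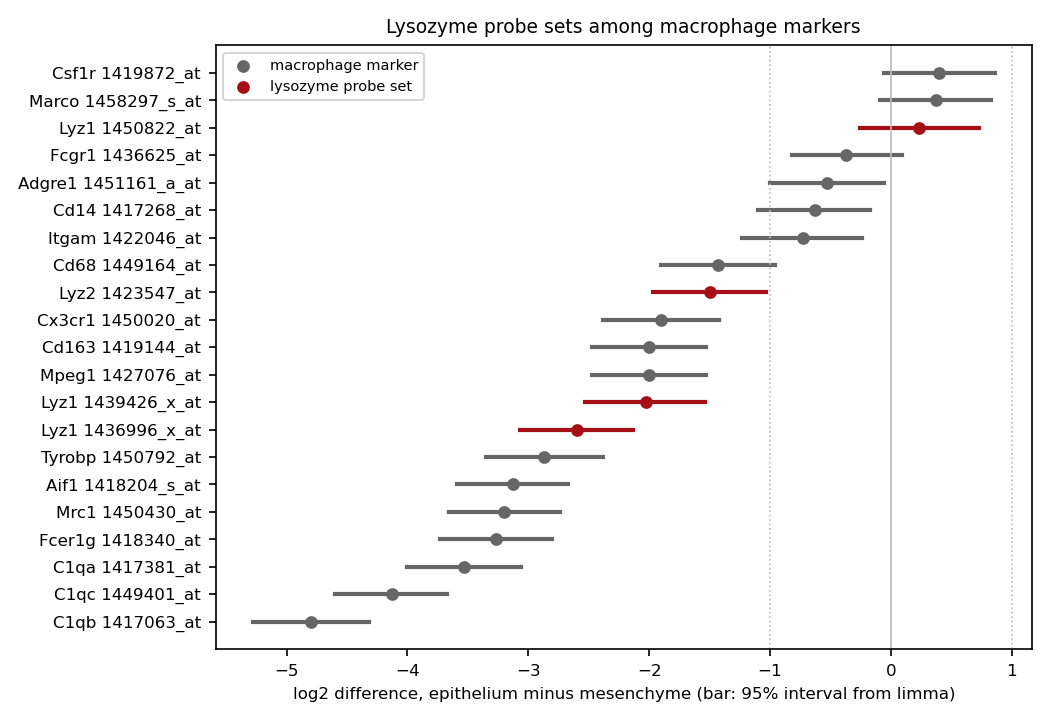
Log2 difference, epithelium minus mesenchyme, with 95% interval from limma, of the 4 lysozyme probe sets (red) among the 17 macrophage markers (grey, 1 probe set per gene). Lyz2 lies at -1.50 and the Lyz1 probe sets at -2.60, -2.03 and 0.23, while the markers range from -4.80 (C1qb) to 0.40 (Csf1r).

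Reg3b, a C-type lectin that attacks the membranes of bacteria, was called higher in the epithelium for 1 probe set of 2. Reg3b 1448290_at stood at 8.6, 9.8 and 8.5 in epithelium A, B and C, against 6.2, 6.5 and 6.3 in mesenchyme A, B and C. All epithelial arrays were above all mesenchymal arrays, epithelium B was the highest, and the mesenchymal values were close to the bacterial controls. The level was 8.97 ± 0.72 in the epithelium and 6.33 ± 0.15 in the mesenchyme, a difference of 2.63 ± 0.26 (adjusted p = 1.42e-10, limma), and it was 2.22 without epithelium B. The other, Reg3b 1416297_s_at, whose suffix marks probes common to several transcripts, stood at 9.3, 9.8 and 9.1 in the epithelium, against 8.6, 8.4 and 8.7 in the mesenchyme. These arrays did not overlap either, but the difference of 0.83 ± 0.24 (adjusted p = 0.00442, limma) was under 2-fold and was not called. It was called under 4 of 5 other scalings, at 1.11 to 1.15, and was 0.57 with spike-in centring (adjusted p = 0.236, limma). The gap between both probe sets' differences was 1.80 (exact permutation test, two-sided, p = 0.1, adjusted p = 0.15 over 6 pairs).

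Reg3g, the lectin that binds peptidoglycan of Gram-positive bacteria and lies near Reg3b on chromosome 6, was not called. Its probe set 1448872_at stood at 8.4, 8.3 and 8.4 in epithelium A, B and C, against 7.7, 7.7 and 8.3 in mesenchyme A, B and C. Mesenchyme C equalled the lowest epithelial array, and the difference was 0.47 ± 0.23 (95% interval -0.01 to 0.94, adjusted p = 0.118, limma). For Reg3g 1448872_at it was 0.69 to 0.79 under 4 of 5 other scalings (adjusted p = 0.00613 to 0.0148, limma) and 0.21 with spike-in centring, under 2-fold in each.

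Among the 5 other Reg genes, 2 were called higher in the epithelium and 3 were not called, against 8.20% of all genes called higher. Reg4, a lectin of enteroendocrine and other secretory cells, had a level of 11.00 ± 0.40 in the epithelium and 7.67 ± 0.21 in the mesenchyme, a difference of 3.33 ± 0.24. Reg1, a lectin first known from the pancreas, stood at 11.3, 11.7 and 11.3 in epithelium A, B and C, against 8.1, 7.9 and 9.0 in mesenchyme A, B and C, a difference of 3.10 ± 0.25. Reg2, Reg3a and Reg3d, which lie between Reg3b and Reg3g in the same cluster together with Reg1, differed by 0.07 ± 0.23, 0.03 ± 0.23 and 0.37 ± 0.23. The cluster thus held 2 genes with a called probe set, Reg3b and Reg1, and 4 without. The summed level of the 5 relatives was 5307 to 7298 in the epithelium and 1403 to 1717 in the mesenchyme.

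Because Reg genes are also products of the exocrine pancreas, 10 acinar genes were set beside them. Clps, the cofactor of pancreatic lipase (1.90 ± 0.30), and the elastase gene Cela1 (1.87 ± 0.24) were called higher in the epithelium, and 8 were not called. Of these 8, Cela2a (-0.93), Cpa1 (-0.90) and Cela3b (-0.87) were lower there with an adjusted p under 0.05 (limma) but under 2-fold, and all 3 were called lower with spike-in centring. The median difference of the list was 0.09, and its summed level was 6833 to 8446 in the epithelium and 4862 to 7702 in the mesenchyme. The part of pancreatic tissue in the Reg values was not tested.

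**Figure D4:**
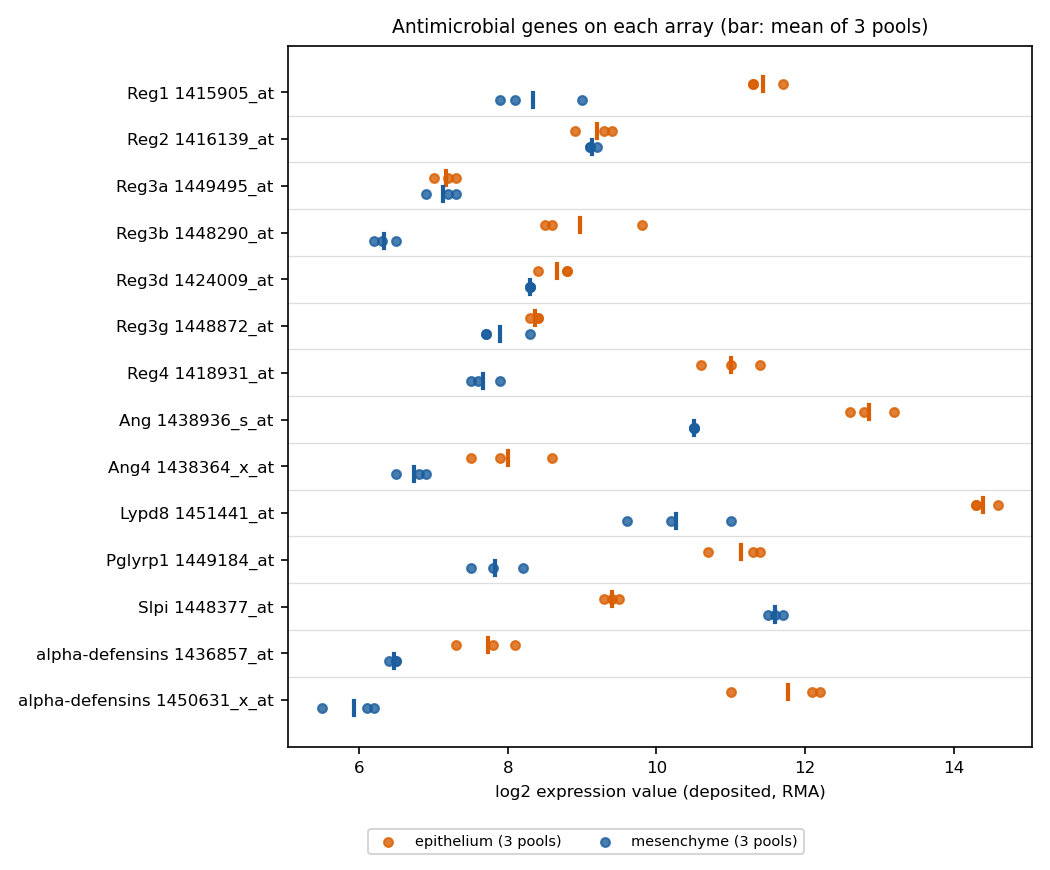
Deposited log2 expression values on each array for the Reg family, angiogenins, other antimicrobial genes and 2 probe sets that match several alpha-defensin genes, with epithelium (orange) above mesenchyme (blue) and a bar at the mean of 3 pools. Reg1, Reg4 and this probe set of Reg3b (1448290_at) separate without overlap, whereas Reg2 and Reg3a overlap, and Slpi is lower in the epithelium. Reg3d separates narrowly, with a lowest epithelial value of 8.4 against 8.3 on each mesenchymal array, and was not called.

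Itln1, intelectin, a lectin that binds bacterial sugars, gave low values. Probe set 1418165_at stood at 7.1, 7.6 and 7.4 in epithelium A, B and C, against 6.9, 6.9 and 7.2 in mesenchyme A, B and C, with overlap between mesenchyme C and epithelium A. All 6 values lay below the array medians, and the difference was 0.37 ± 0.23 (95% interval -0.10 to 0.83, adjusted p = 0.228, limma). For Itln1 1418165_at it was 0.56 to 0.69 under 4 of 5 other scalings (adjusted p = 0.00186 to 0.00584, limma) and 0.11 with spike-in centring, under 2-fold in each. Neither of the other listed intelectin symbols had a probe set of its own here.

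Ang4, an angiogenin with bactericidal activity known from mouse Paneth cells, was called higher in the epithelium for 1 probe set of 2. Ang4 1438364_x_at stood at 7.9, 8.6 and 7.5 in epithelium A, B and C, against 6.9, 6.8 and 6.5 in mesenchyme A, B and C. The tissues did not overlap, and epithelium B alone reached its array's median. The difference was 1.27 ± 0.25 or 2.41-fold (adjusted p = 7.98e-05, limma), and without epithelium B it was 0.97, below the 2-fold limit of a call. Ang4 1440832_at stood at 9.1, 9.4 and 8.9 in the epithelium, against 8.2, 7.6 and 8.9 in the mesenchyme. Here mesenchyme C equalled epithelium C, and the difference of 0.90 ± 0.26 (adjusted p = 0.00545, limma) was not called. It reached 1.23 without mesenchyme C, 1.02 without epithelium C and 1.16 to 1.22 under 4 of 5 other scalings, and was then called. With spike-in centring it was 0.64, and without mesenchyme B it was 0.58. Its adjusted p was above 0.05 in both of these, with the pool letter as a block, and without epithelium A or B (limma). The differences of both probe sets were 0.37 apart (exact permutation test, two-sided, p = 0.7).

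Of 8 other measured genes of the angiogenin and ribonuclease group, 4 were called higher in the epithelium, 1 was called lower and 3 were not called. The call of 1 of the 4, Rnase2a, ended without epithelium A, epithelium B or mesenchyme A. Ang, the founding angiogenin, was higher by 2.37 ± 0.23 (12.87 ± 0.31 in the epithelium and 10.50 ± 0.00 in the mesenchyme), with all 3 of its probe sets called, at 2.30 to 2.97. Rnase4, which shares its promoter with Ang, was higher by 1.50 ± 0.23, and the pancreatic type ribonuclease Rnase1 by 1.63 ± 0.25. Rnase6, a ribonuclease of monocytes and macrophages, was lower in the epithelium by -2.60 ± 0.23 (6.17 ± 0.15 in the epithelium and 8.77 ± 0.31 in the mesenchyme). Probe sets of Ang and Ang4 with the suffixes _s_at and _x_at can share signal between these paralogs, and their part in each other's values was not tested.

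Pla2g2a, the secreted phospholipase of Paneth cells that degrades bacterial membranes, is disrupted by a frameshift in C57BL/6 mice, so its protein is not made in this strain. Pla2g2a 1450128_at stood at 8.8, 8.9 and 8.7 in epithelium A, B and C, against 9.5, 9.4 and 9.6 in mesenchyme A, B and C. All epithelial arrays were below all mesenchymal arrays with an SD of 0.10 in each tissue, but the difference, -0.70 ± 0.22 (adjusted p = 0.0122, limma), was under 2-fold and not called. It was -0.42 to -0.37 under 4 other scalings, with an adjusted p above 0.05 in 3 of them, and -0.96 with spike-in centring, and was called in none of these.

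Among 10 related secreted phospholipases, Pla2g12b, which is needed for the export of lipoproteins, was higher in the epithelium by 3.33 ± 0.24, and Pla2g12a by 2.10 ± 0.25. The 8 others were not called. The genes near Pla2g2a on chromosome 4, Pla2g2c, Pla2g2d, Pla2g2e and Pla2g2f, were among those not called, as was Pla2g5 (0.03), whose annotated span contains Pla2g2a.

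Defb1, the beta-defensin that many epithelia make without induction, had no called probe set. Probe set 1419491_at stood at 6.4, 6.9 and 6.7 in epithelium A, B and C, against 6.8, 6.9 and 6.6 in mesenchyme A, B and C, below every array median. Its difference was -0.10 ± 0.23 (95% interval -0.57 to 0.37), a sign that 4 of 5 other scalings turned. Probe set 1419492_s_at stood at 8.2, 8.3 and 8.7 in the epithelium, against 7.3, 7.8 and 9.0 in the mesenchyme, where pool C was above all epithelial arrays and the difference was 0.37 ± 0.28 (adjusted p = 0.342, limma). For Defb1 1419492_s_at the difference was 0.00 without mesenchyme A and 0.85 without mesenchyme C (adjusted p = 0.0198, limma), still under the 2-fold limit.

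Of 22 other defensin genes with a probe set of their own, none was called in either direction by limma, although 3 had an unadjusted p under 0.05. Of these, 1 had an adjusted p under 0.05, the alpha-defensin gene Defa31 (-0.63 ± 0.23). Their differences ran from -0.63 to 0.53 with a median of -0.09. The picture differed for probe sets that the annotation assigns to several defensin genes, which were looked at after their values were seen. Probe set 1450631_x_at was joined to the alpha-defensin genes Defa30 and Defa24. It stood at 12.1, 12.2 and 11.0 in epithelium A, B and C, against 5.5, 6.2 and 6.1 in mesenchyme A, B and C. The tissues were far apart, with mesenchymal values at the level of the bacterial controls and a difference of 5.83 ± 0.27 (adjusted p = 7.03e-20, limma), and it was 5.62 to 6.22 with any 1 array left out. A second joined alpha-defensin probe set, 1436857_at, was assigned to Defa22 and Defa21. It stood at 7.8, 8.1 and 7.3 in the epithelium, against 6.4, 6.5 and 6.5 in the mesenchyme. Its difference was 1.27 ± 0.24 (adjusted p = 3.40e-05, limma). Which defensin genes gave this signal cannot be told from these probe sets.

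Paneth cell markers with a probe set of their own were not called. The listed markers Defa21, Defa22 and Defa24 had none, and their joined probe sets were called higher in the epithelium. These were 1436857_at for Defa22 and Defa21 (1.27) and 1450631_x_at for Defa30 and Defa24 (5.83). Of 12 listed markers 6 were measured singly, 1 of which, Defa31, also stands among the defensins, and none was called in either direction by limma (1 had an unadjusted p under 0.05), with differences of -0.63 to 0.40 and a summed level of 2924 to 3563 in the epithelium and 3140 to 3615 in the mesenchyme. Mmp7, the protease that activates alpha-defensins in mouse Paneth cells, stood at 9.9, 10.2 and 10.0 in epithelium A, B and C, against 9.6, 9.7 and 9.6 in mesenchyme A, B and C. The arrays did not overlap, but the difference was 0.40 ± 0.23 (adjusted p = 0.173, limma). Of 9 genes listed for the Paneth and secretory fate, Atoh1, which commits progenitors to secretory fates, was higher in the epithelium by 1.60 ± 0.24. The receptor Ephb3, which places Paneth cells in crypts, was lower there by -1.67 ± 0.23. Tcf4, also on the list, was lower by -2.17 ± 0.23, but codes for a basic helix-loop-helix factor and is not the Wnt-pathway gene. Tcf7l2, the Wnt-pathway factor, was not called (0.30 ± 0.23, adjusted p = 0.34, limma).

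Goblet cell markers were mostly higher in the epithelium. Of 10 measured, 8 were called higher in the epithelium with a list median of 3.33, led by the secreted proteins Clca1 (6.13 ± 0.29), Spink4 (3.90 ± 0.24), Agr2 (3.87 ± 0.30) and Tff3 (3.80 ± 0.24). Their summed level was 34522 to 62557 in the epithelium and 4245 to 5812 in the mesenchyme. Retnlb, an antibacterial goblet cell product that is known to appear with bacterial colonisation, was not called (-0.30).

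Other antibacterial proteins of the gut went both ways. Of 15 measured, 3 were called higher in the epithelium, 2 were called lower and 10 were not called. Lypd8, a protein that keeps flagellated bacteria from the epithelium, stood at 14.3, 14.6 and 14.3 in epithelium A, B and C, against 10.2, 9.6 and 11.0 in mesenchyme A, B and C, a difference of 4.13 ± 0.26 or 17.5-fold. Pglyrp1, a protein that binds bacterial peptidoglycan, was higher by 3.30 ± 0.24, and the goblet cell lectin Zg16 by 2.10 ± 0.23. Slpi, a protease inhibitor with antibacterial activity, was lower in the epithelium (9.40 ± 0.10 in the epithelium and 11.60 ± 0.10 in the mesenchyme, a difference of -2.20 ± 0.22), as was S100a8. Over all 83 measured genes of the related lists, 15 were called higher in the epithelium, 6 were called lower and 62 were not called. Of all genes, 8.2% were called higher and 15.9% lower. The median difference of the 83 was 0.03, against -0.17 over all genes.

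Receptors and signals known to induce Reg3 genes were measured in 9 genes, with 3 called higher in the epithelium, 1 called lower and 5 not called. Il22ra1 and Il10rb, the chains of the interleukin-22 receptor, were higher by 3.17 ± 0.24 and 1.63 ± 0.24, and the cytokine gene Il18 by 2.20 ± 0.23. Il6st, the shared receptor chain of the interleukin-6 group, was lower in the epithelium by -3.93 ± 0.23. Stat3, Myd88, Tlr2, Tlr4 and Tlr5 were not called, with differences of -0.47 to 0.10.

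**Figure D5:**
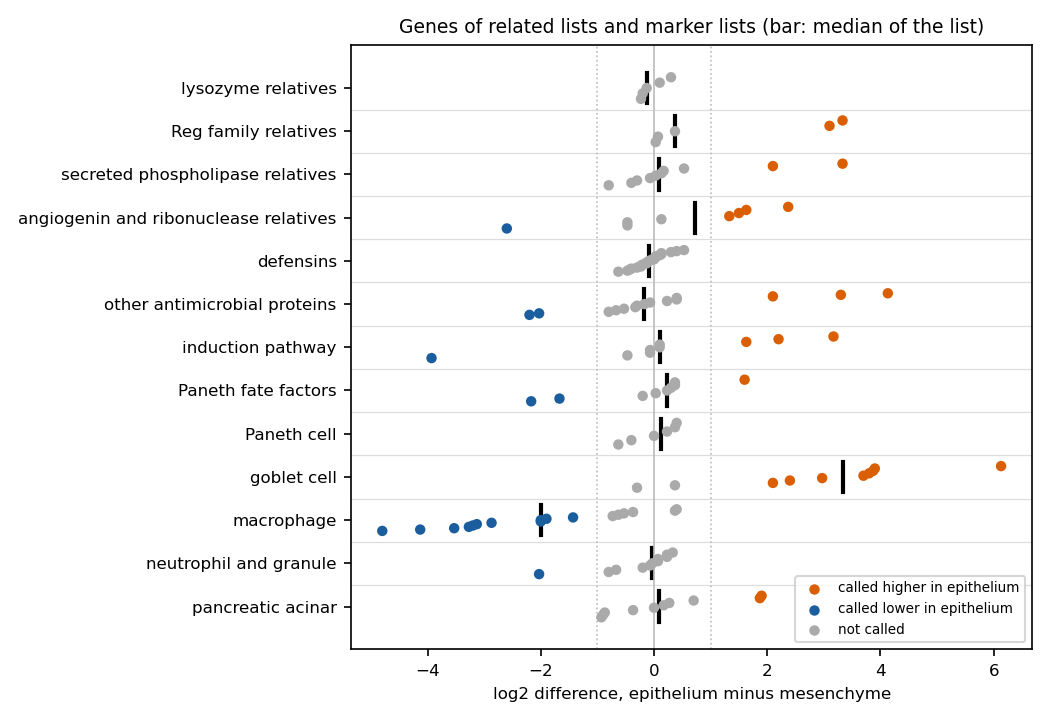
Log2 difference, epithelium minus mesenchyme, of each measured gene of the related lists and of 5 marker lists (1 probe set per gene), in orange where called higher in the epithelium, blue where called lower and grey where not called, with a bar at the list median. The defensins with a probe set of their own gather around -0.09, the goblet cell markers have a median of 3.33 and the macrophage markers one of -2.00.

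For each member with a called probe set, the genes most alike in pattern were taken by the root mean square distance over the 6 arrays between values centred on their own means, as a description. Closest to Lyz2 were Zc3h7b (distance 0.075), Cntln, Mmrn2, Spice1 and Ttpa (up to 0.107), and closest to Lyz1 1436996_x_at were Sema4c (0.047), Vash2, Kif26b, Otud1 and Sertm1 (up to 0.111). Closest to Reg3b 1448290_at were Lpar3 and Rab20 (0.121 each), Cth, Fam241b and Glrx (up to 0.191), and closest to Ang4 1438364_x_at were Amot (0.107), Rnaset2a, Ifngr2, Lgals9 and Mocs2 (up to 0.129).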

How the data were processed

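Total RNA of 6 tissue pools was hybridised to 1 array each. Log2 expression per probe set was deposited by the authors, who used RMA (per the submitters' processing notes). Its version and settings are not given in the sources used here. Rounding to 0.1 and unequal array medians limit small differences. Of 45101 probe sets, 64 controls were set aside. The platform annotation gave 34945 probe sets 1 gene symbol, 932 several and 9160 none, and those with 1 were renamed through RefSeq (GRCm38.p6), 34741 by gene ID, 143 by symbol and 59 by synonym, while 2 kept the old name.

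Epithelium was compared with mesenchyme by limma 3.58.1 (R 4.3.3, lmFit and eBayes, 4 residual and 31.7 prior degrees of freedom) over all probe sets, with Benjamini-Hochberg adjustment and no block. The script was tested on simulated data. Genes in lists stand by their brightest probe set. The members, lists and alternatives were chosen with earlier results of these data known. Named were all members, in each list the 4 called genes that differed most plus 2 of the rarer direction, and the 5 genes most alike. Genes outside this rule (Csf1r, Cd68, Rnase2a, Vim and Madcam1, the joined defensin probe sets and every list gene named as not called) were chosen after their values were seen.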

Additional observations from a re-analysis of the deposited data

How the results depend on the processing

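The calls of both Lyz1 _x_at probe sets and of Reg3b 1448290_at held under all 16 alternatives that apply to single probe sets, and that of Lyz2 under all but the minimum difference of 2 (-1.50), under which Ang4 1438364_x_at (1.27) was not called either. With cyclic loess, quantile normalization, equal array medians and ribosomal centring, the number of member probe sets called higher in the epithelium was 4 in place of 2, as Ang4 1440832_at (1.16, 1.21, 1.20 and 1.22) and Reg3b 1416297_s_at (1.11, 1.14, 1.13 and 1.15) were added. With no minimum difference it was 4 as well (0.90 and 0.83), and Pla2g2a was called lower (-0.70). It was 1 at the minimum difference of 2 and 1 with dim probe sets left out, which removes Ang4 1438364_x_at before the fit. The uncalled differences of Defb1 1419491_at turned to 0.09, 0.18, 0.20 and 0.22 under those 4 scalings, and that of Lyz1 1450822_at to -0.03 with spike-in centring. With 1 array left out, the differences ran from 0.97 to 1.52 for Ang4 1438364_x_at, from 0.58 to 1.23 for Ang4 1440832_at, from -0.22 to 0.03 for Defb1 1419491_at and from -0.05 to 0.40 for Lyz1 1450822_at, and 1 to 3 member probe sets were called higher. Over the related lists, 10 genes were called lower with no minimum difference, against 6. Of 38 named genes of the lists, 7 lost their call under some alternative, in each case the minimum difference of 2, and none turned its sign, while S100a8 was removed before the fit with dim probe sets left out. It is unknown here whether epithelial and mesenchymal pools that share a letter (A, B or C) came from the same embryos. Deviations of same-lettered pools correlated at -0.311, -0.151 and 0.12, and those of pools with different letters at -0.253 to 0.36. With only 3 pools per tissue, these correlations cannot decide whether the pools were paired. With the letter as a replicate block, Lyz2 differed by -1.50, no member call changed, and 2677 probe sets were called higher and 6902 lower, against 2695 and 6976. Signal over background limits Itln1, Defb1 1419491_at and Lyz1 1450822_at, which lay below the array medians.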

Other observations

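Csf1r, known as a receptor of macrophages, was among the 6 macrophage markers that were not called. Its 3 probe sets were bright in both tissues, with levels of 13.57, 12.30 and 12.17 in epithelial pools, against 13.17, 11.93 and 11.73 in mesenchymal pools, and differences of 0.40, 0.37 and 0.43, none of them called. Rnase2a, an eosinophil-type ribonuclease, was called higher in the epithelium (1.33 ± 0.33), at 8.0, 8.0 and 8.2 in epithelium A, B and C, against 5.3, 7.3 and 7.6 in mesenchyme A, B and C. These values lay below the median of every array, and with 1 array left out the difference ran from 0.62 (without mesenchyme A) to 1.77. Its call ended without mesenchyme A, epithelium A or epithelium B, and dim probe sets left out removes it before the fit.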
